A study of Homo sapiens with 4 samples.

Results

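The genes described here are 30 genes of the ATF4 response and of amino acid synthesis. They were chosen by symbol from a list of ATF4 targets and of serine, proline and one-carbon enzymes, and all 30 had 1 row each in the deposited table of 60544 genes. PC3, an established line of human prostate cancer cells, gave 4 poly(A) RNA libraries, 2 with the label shNC and 2 with the label sh812. The design text speaks of METTL3 knockdown and control, and sh812 was taken to be the knockdown since the only other label is shNC. Both arms carry a short hairpin label, the knockdown rests on 1 hairpin label, and no time after hairpin delivery or clonal state of the cells is given in the sources used here. METTL3, the methyltransferase that places the m6A mark on messenger RNA, had 44.3 and 43.6 CPM (counts scaled to the normalized library size) in the shNC libraries and 7.66 and 8.75 CPM in the sh812 libraries, which is 18.7% of the control level (log2 fold change -2.42, SE 0.11, adjusted p = 5.54e-14 in edgeR).

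Library totals ran from 31450648 to 37041330 counts. The epithelial keratin genes KRT8 and KRT18 had 7650 to 9102 and 5269 to 6940 counts per library. Of the markers of other cell types, the T-cell gene CD3E was at 0 in all 4 libraries and the endothelial gene VWF reached 2 counts, while PECAM1 had 748 to 1379 counts and COL1A1 had 1029 to 1426. The labels give no batch or date, so a batch aligned with the groups cannot be told apart from the knockdown, and nothing says that the replicates were separate cultures, so p-values measure only the spread between these libraries. In bulk RNA, a change in every cell and a change in the share of cells that express a gene cannot be told apart either.

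ATF4 is a transcription factor whose protein is made mainly when the initiation factor eIF2 is phosphorylated by one of its stress kinases, under amino acid shortage, endoplasmic reticulum stress, heme shortage or viral RNA. Together with C/EBP partners it binds a composite sequence, the C/EBP-ATF response element (CARE), and switches on amino acid carriers, amino acid synthesis, one-carbon enzymes and, under lasting stress, the factor CHOP (gene DDIT3). Because ATF4 is controlled at translation and by protein turnover, the level of its mRNA is not a measure of its activity, and its target mRNAs are the usual readout.

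The CARE letters TGATGNAAN were searched on both strands, from 250 bases before to 50 after each start, in RefSeq promoter sequences of GRCh38.p14. Of the 23 members with a sequence in that table, 6 held the letters in at least 1 window, which is 26.1%, against 4.45% of all 27305 genes in the table. The members were chosen in part as ATF4 targets, so their higher share is not a result of these data. They also had 39 windows for 23 genes, against 35116 windows for 27305 genes. A match describes the letters only and not a bound site. The 5 stretches below are shown because they allow the changes of CARE-bearing members to be read side by side. They run 5′ to 3′ on the strand of the gene, and the capitals mark the element, which is reversed in CHAC1.
ASNS, chr7:97872458-97872486: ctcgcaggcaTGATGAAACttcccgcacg
CHAC1, chr15:40953251-40953279: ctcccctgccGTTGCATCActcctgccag
CEBPG, chr19:33374061-33374089: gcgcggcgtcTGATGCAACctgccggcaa
JDP2, chr14:75427996-75428024: tagccggggcTGATGCAACccgtcccgcc
MTHFD1L, chr6:150866347-150866375: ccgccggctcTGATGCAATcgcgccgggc
The elements of CEBPG and JDP2 hold the same 9 bases, and that of CHAC1 holds them on the opposite strand. The sixth member was SLC3A2, with its match 36 bases after an annotated start. The MTHFD1L element also lay 24 bases after an annotated start, and 81 and 120 bases before others. None of the 6 passed the test between the groups: the log2 fold changes were -0.60 for ASNS, -0.36 for CHAC1, -0.07 for SLC3A2, -0.01 for CEBPG, -0.07 for JDP2 and 0.09 for MTHFD1L. Of the 4 members that did pass, SESN2, DDIT4 and CTH had a promoter sequence in the table and none held the letters in these windows.

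The members of the ATF4 response were called about as often as other genes, and the few changes were small. All 30 members passed the filter on low counts, and 4 of them were called, which means that edgeR's quasi-likelihood test gave a Benjamini-Hochberg adjusted p below 0.05 over all 16802 genes tested. That is 13.3% of the members, against 10.8% of all genes tested. SLC7A11 and SESN2 were lower in sh812, and CTH and DDIT4 were higher, so each direction held 6.67% of the members against 5.43% of all genes called higher and 5.42% called lower. The median log2 fold change of the members was -0.0062, beside -0.0056 for all genes tested. The 4 called changes were all under 1.5-fold. At an unadjusted p under 0.05 there were 6 members higher and 4 lower in edgeR, 33.3% in all, against 24.8% of all genes tested. The members were chosen with earlier results of these data known, so these shares and those of groups lying apart are a description only.

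**Figure D1:**
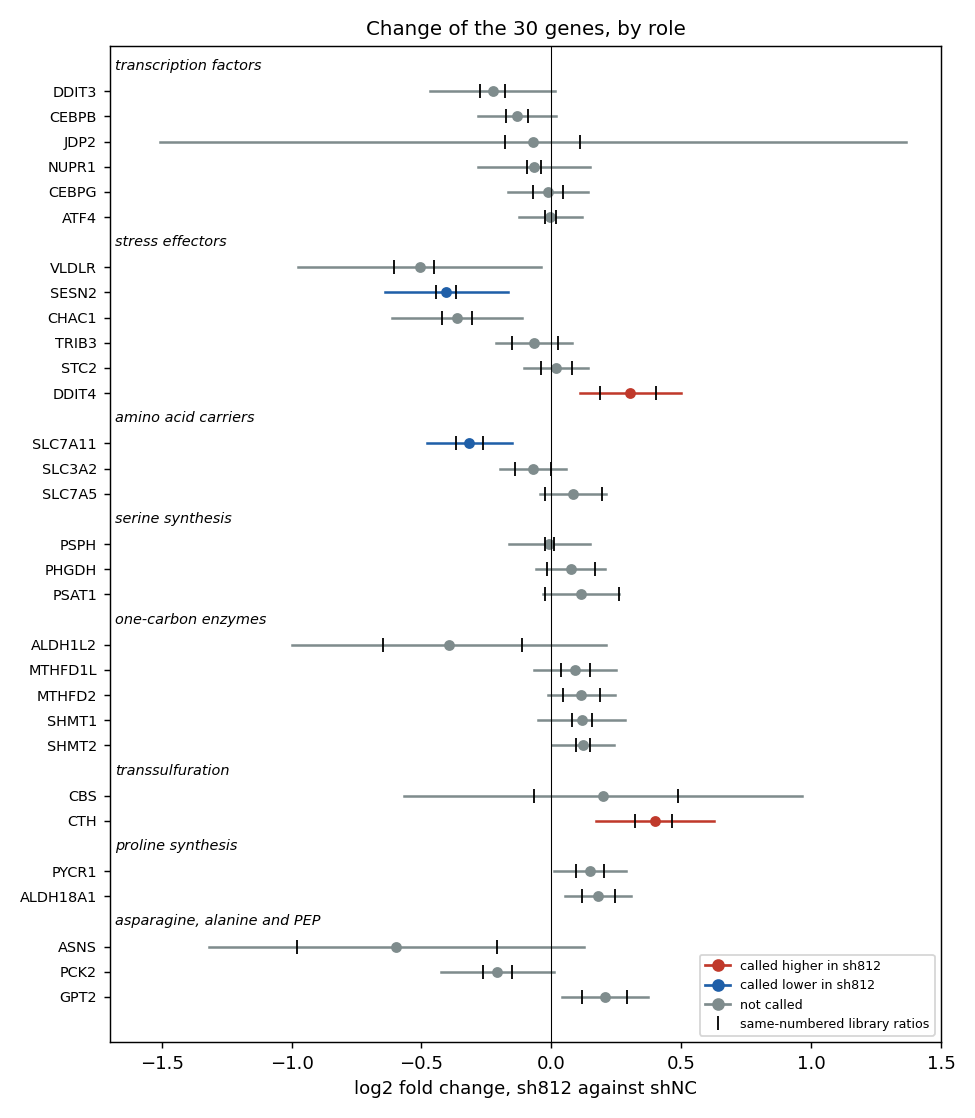
Log2 fold change of sh812 against shNC for each of the 30 genes, grouped by role, with its 95% interval from the edgeR fit (line), and the log2 ratio of both same-numbered library pairs (black ticks). The 4 called genes are in colour, the 26 others in grey, and the widest intervals belong to genes with few counts such as JDP2.

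Of the 26 members that were not called, 20 had a 95% interval that lay wholly within a 1.5-fold change in either direction. The 6 others were CHAC1 and the sparsely counted JDP2, VLDLR, ALDH1L2, CBS and ASNS. In 18 of the 30 members (60.0%) the libraries of one arm lay wholly apart from those of the other, against 53.6% of all genes tested. These were 9 members with sh812 on the higher side and 9 on the lower side, or 30.0% each, against 26.2% and 27.4% of all genes. Groups that lie apart are about as common among these genes as elsewhere in the table.

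None of the 6 transcription factor genes was called, and all 6 fitted values were below 0, although those of ATF4 with DESeq2 and JDP2 with limma-voom were just above it. ATF4 itself, on chromosome 22 from 39519695 to 39522685 (GENCODE 29, GRCh38), had 206 and 198 CPM in shNC and 202 and 201 CPM in sh812. Its log2 fold change was -0.0048 with a 95% interval from -0.13 to 0.12, and the sh812 libraries lay between the shNC libraries. DDIT3, which encodes the pro-apoptotic factor CHOP, had 17.1 and 16.2 CPM in shNC and 15.1 and 13.4 CPM in sh812. Both sh812 libraries were thus the lowest, but the log2 fold change of -0.23 (SE 0.12) had an adjusted p of 0.237 in edgeR. DDIT3 shares 27.2% of its exon bases with MARS1, which is read in the other direction, and whether counting used strand is not given in the sources used here. CEBPB and CEBPG, which encode bZIP partners of ATF4, had log2 fold changes of -0.13 (adjusted p = 0.267) and -0.01 (adjusted p = 0.947). NUPR1, a stress-induced chromatin protein gene, was at -0.07 (adjusted p = 0.752). JDP2, a bZIP repressor gene, had only 8 and 20 counts in each arm, so its 95% interval ran from -1.51 to 1.37.

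The stress effectors split, with SESN2 lower and DDIT4 higher. Both encode inhibitors of the growth kinase mTORC1: SESN2 is a leucine sensor, and DDIT4 (REDD1) acts through the TSC complex. SESN2, on chromosome 1 from 28259527 to 28282491, had 17.5 and 17.3 CPM in shNC and 12.9 and 13.4 CPM in sh812. Each arm was tight and the arms lay apart, at 17.4 ± 0.148 and 13.1 ± 0.379 CPM (SD, n = 2). SESN2 fell to 75.5% of the control level (log2 fold change -0.40, SE 0.11, adjusted p = 0.0238 in edgeR), with ratios of -0.44 and -0.37 in the same-numbered pairs. With DESeq2, which called 10.4% of the genes it gave an adjusted p, that of SESN2 was 0.0887, and leaving out sh812 replicate 1 or sh812 replicate 2 gave 0.216 and 0.112.

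DDIT4, on chromosome 10 from 72273920 to 72276036, had 36.1 and 39.0 CPM in shNC and 41.1 and 51.6 CPM in sh812. Both sh812 libraries were the higher ones, but they differed from each other by 0.33 on the log2 scale, more than the difference between the arms. DDIT4 rose to 123.5% of control (log2 fold change 0.30, SE 0.09, adjusted p = 0.0383 in edgeR). The call was lost with DESeq2 (adjusted p = 0.0929), with library size alone (0.0897), with the length trend of each library removed (0.108) and without shNC replicate 1 (0.0603), and without sh812 replicate 2 the log2 fold change was 0.13 (adjusted p = 0.665). An antisense gene, itself at 0 counts, covers 41.2% of the DDIT4 exon bases. A counter that ignores strand and skips ambiguous reads would drop DDIT4 reads there and still leave the antisense gene at 0. Whether that lowered the DDIT4 counts was not tested.

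**Figure D2:**
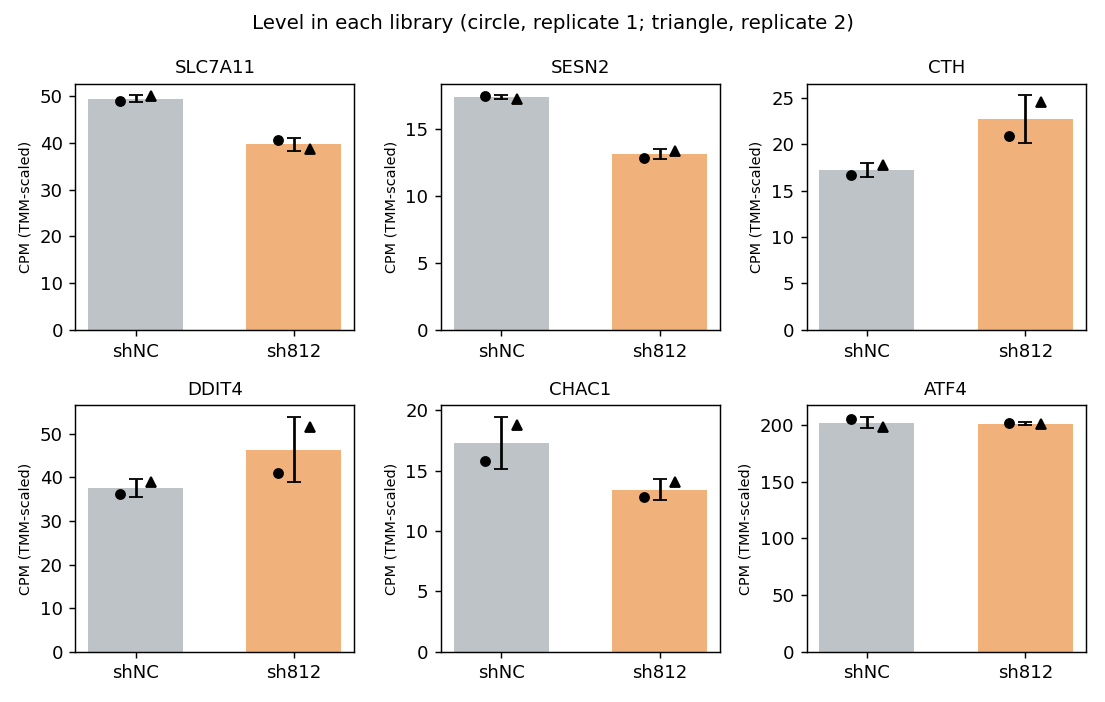
CPM in each library for the 4 called genes, CHAC1 and ATF4, with bars at the mean and error bars of 1 SD over 2 libraries (circle, replicate 1; triangle, replicate 2). SLC7A11 and SESN2 show tight, separate arms, DDIT4 and CTH have 1 high sh812 library, and the ATF4 bars are level at about 202 and 201 CPM.

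CHAC1 encodes an enzyme that breaks down glutathione and is a well-known ATF4 target. It had 15.8 and 18.8 CPM in shNC and 12.8 and 14.1 CPM in sh812, so the arms lay apart while the controls differed by 0.25 on the log2 scale. Its log2 fold change of -0.36 (SE 0.12) had an adjusted p of 0.0551, just over the threshold. It passed in 4 of the 9 alternatives that kept all 4 libraries and gave a new p-value, among them the replicate block (0.0354) and the removal of the length trend (0.0197). VLDLR, a lipoprotein receptor gene, had 156 and 179 counts in shNC and 95 and 148 in sh812, which gave -0.51 on the log2 scale (SE 0.23, adjusted p = 0.16). TRIB3, a pseudokinase that feeds back on ATF4, was at -0.07 (adjusted p = 0.63), with 119 and 140 CPM in shNC and 121 and 126 CPM in sh812. STC2, a secreted glycoprotein gene, was at 0.02 (adjusted p = 0.893), and at -0.03 with library size alone.

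Of the 3 carriers, only SLC7A11 was called. SLC7A11 (xCT) imports cystine in exchange for glutamate, SLC7A5 (LAT1) carries large neutral amino acids, and SLC3A2 (4F2hc) is the heavy chain that both need at the cell surface. SLC7A11, on chromosome 4 (minus strand) from 138164097 to 138242349, had 48.9 and 49.9 CPM in shNC and 40.7 and 38.7 CPM in sh812. The arms lay apart by several times their own spread, at 49.4 ± 0.738 and 39.7 ± 1.42 CPM (SD, n = 2). SLC7A11 fell to 80.4% of control (log2 fold change -0.32, SE 0.08, adjusted p = 0.0115 in edgeR), with ratios of -0.26 and -0.37 in the same-numbered pairs. It was the only call of DESeq2 among the 27 members to which that tool gave an adjusted p (0.0254), and it passed in all 9 alternatives that kept the 4 libraries and gave a new p-value. The call was lost without sh812 replicate 1 (adjusted p = 0.0786) and without sh812 replicate 2 (0.184). The other carriers were not called: SLC7A5 was at 0.08 (95% interval -0.05 to 0.21) and SLC3A2 at -0.07 (95% interval -0.20 to 0.06).

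The serine pathway was not called at any step. PHGDH, PSAT1 and PSPH encode the 3 enzymes that make serine from a glycolytic intermediate. PSAT1 had 102 and 118 CPM in shNC and 122 and 116 CPM in sh812, and PHGDH had 139 and 155 CPM in shNC and 156 and 154 CPM in sh812. In both genes the sh812 libraries lay close to shNC replicate 2, and shNC replicate 1 was the lowest. Their log2 fold changes were 0.11 (adjusted p = 0.331) and 0.07 (adjusted p = 0.527), and that of PSPH was -0.01 (adjusted p = 0.969). PSPH has a pseudogene copy, PSPHP1, with 89 to 151 counts per library, so its count is uncertain.

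Of the 5 one-carbon enzymes, 4 had both sh812 libraries above both shNC libraries, an arrangement that 26.2% of all genes tested showed, and none was called. SHMT2, the mitochondrial enzyme that moves a carbon unit from serine to folate, had 214 and 222 CPM in shNC and 237 and 237 CPM in sh812 (log2 fold change 0.12, SE 0.06, adjusted p = 0.192). Its cytosolic counterpart SHMT1 was at 0.12 (adjusted p = 0.40). MTHFD2 and MTHFD1L, the next mitochondrial folate enzymes, were at 0.12 (adjusted p = 0.256) and 0.09 (adjusted p = 0.504). These 4 values lay between 0.09 and 0.12. ALDH1L2, which oxidises mitochondrial formyl-folate, had 65 to 90 counts per library and was at -0.40 (SE 0.29, adjusted p = 0.44).

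CTH was the member with the largest called increase. It encodes cystathionine gamma-lyase, the enzyme that releases cysteine at the end of transsulfuration, a second route to cysteine beside cystine import through SLC7A11. CTH, on chromosome 1 from 70411218 to 70439851, had 16.7 and 17.8 CPM in shNC and 20.9 and 24.5 CPM in sh812. The arms lay apart at 17.2 ± 0.765 and 22.7 ± 2.58 CPM (SD, n = 2), and the sh812 libraries were the more spread. CTH rose to 131.7% of control (log2 fold change 0.40, SE 0.11, adjusted p = 0.0205 in edgeR), and the adjusted p was 0.0632 with DESeq2. Without sh812 replicate 2, its log2 fold change was 0.27 (adjusted p = 0.353). CBS, the enzyme of the step before, had 34 to 54 counts and was at 0.20 (SE 0.37). CBS has an identical copy in GRCh38, CBSL, which was at 0 in all 4 libraries, so the CBS count is uncertain.

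The proline enzymes and GPT2 lay apart on the higher side without being called. ALDH18A1 makes the proline precursor from glutamate, and it had 137 and 148 CPM in shNC and 162 and 160 CPM in sh812 (log2 fold change 0.18, SE 0.06, adjusted p = 0.0624). PYCR1, which closes the ring to proline, was at 0.15 (adjusted p = 0.17), and GPT2, the mitochondrial alanine aminotransferase, at 0.21 (adjusted p = 0.104). GPT2 passed with the length trend removed (adjusted p = 0.0437). PCK2, mitochondrial phosphoenolpyruvate carboxykinase, had 22.0 and 20.2 CPM in shNC and 18.3 and 18.2 CPM in sh812, a log2 fold change of -0.21 (adjusted p = 0.225). ASNS, asparagine synthetase and a classic CARE target, had only 60 and 68 counts in shNC and 48 and 39 in sh812 (log2 fold change -0.60, SE 0.35, adjusted p = 0.308). An annotated transcript on the same strand covers 44.6% of the ASNS exon bases and itself had 3 to 18 counts. Reads that fall on both genes can be dropped by a counter that skips ambiguous reads, and whether that lowered ASNS was not tested.

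Compared per kilobase of exon, the levels of the members spanned a wide range. The length was the union of all exons annotated for a gene in GENCODE 29, such as 2514 bases for ATF4, 4838 for SHMT2 and 9217 for PHGDH. Such a union can be longer than the transcript made in these cells, which lowers the level. The order below therefore holds for these lengths only. In shNC the highest level was that of ATF4 at 80.3 CPM per kilobase, followed by SLC7A5 at 55.9, PSAT1 at 50.2 and SHMT2 at 45.0. The SDs of these levels were 4.35 for SLC7A5, 5.35 for PSAT1 and 1.16 for SHMT2, so the 1-SD ranges of SLC7A5 and PSAT1 overlapped, and so did those of PSAT1 and SHMT2. The next 4, ALDH18A1, TRIB3, SLC3A2 and STC2, lay between 37.0 and 37.8. The called genes lay at 18.3 for DDIT4, 7.14 for CTH, 5.12 for SLC7A11 and 5.04 for SESN2. VLDLR, ASNS, ALDH1L2, CBS and JDP2 lay at the bottom with 0.523, 0.419, 0.285, 0.180 and 0.0676, each from few counts.

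Replicates of one arm differed from each other by as much as many members differed between the arms. In 15 of the 30 members, the absolute log2 fold change was below the larger of the 2 differences between replicates of one arm. For DDIT4 and VLDLR only the sh812 difference was large enough, at 0.33 and 0.61, against 0.11 and 0.46 in shNC. The matching share over all genes was not computed, so the count is a description only. The difference between the shNC libraries, replicate 2 against replicate 1, was 0.22 for PSAT1, 0.24 for TRIB3, 0.25 for CHAC1 and 0.16 for PHGDH. For SLC7A11 and SESN2 it was 0.03 and -0.02. Leaving out shNC replicate 2 raised the number of called members to 12, with 10 higher, while 18.1% of all genes were then called. The 10 were CTH, DDIT4, SLC7A5, PHGDH, PSAT1, SHMT2, MTHFD2, ALDH18A1, PYCR1 and GPT2. Without shNC replicate 1, where 10.4% of all genes were called, 6 members were called, of which CTH was higher and SLC7A11, SESN2, CHAC1, TRIB3 and VLDLR were lower. Without sh812 replicate 1, the log2 fold changes were 0.51 for CTH, 0.46 for DDIT4, -0.35 for SLC7A11 and -0.37 for SESN2. Without sh812 replicate 2, they were 0.27, 0.13, -0.28 and -0.44 in the same order.

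**Figure D3:**
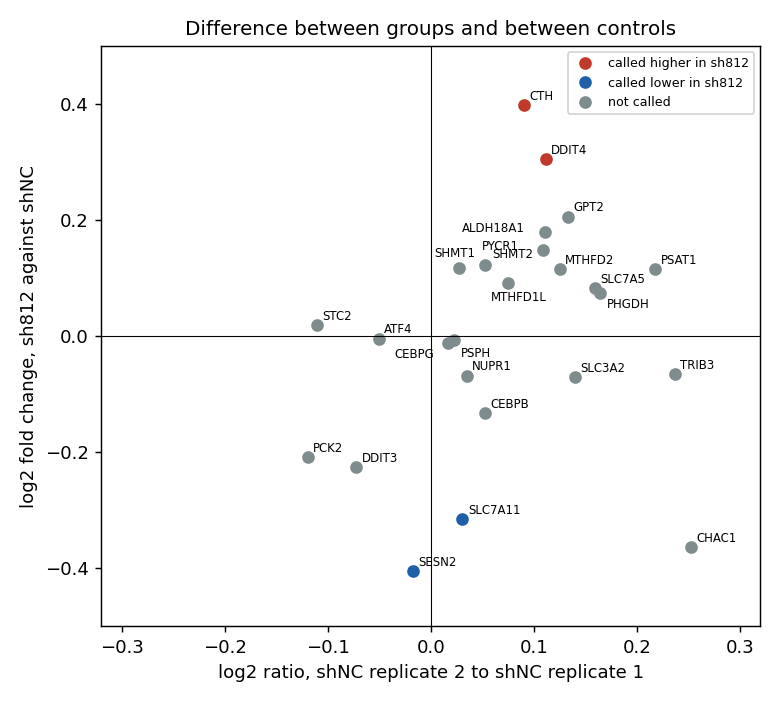
Log2 fold change of sh812 against shNC (vertical) beside the log2 ratio of shNC replicate 2 to shNC replicate 1 (horizontal) for the 25 members with a mean CPM of at least 5. SESN2 and SLC7A11 sit low with almost no difference between the controls, and PSAT1, TRIB3 and CHAC1 have the widest control differences.

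Among the genes around the members, calls again went both ways. The lists of other genes were chosen with earlier results of these data known, so their shares are a description only. A list of 65 other genes of the pathway had 58 tested, of which 5 were called higher and 5 lower (17.2% in all, against 10.8% of all genes tested), with a median log2 fold change of 0.02. None of the 4 eIF2 kinase genes was called. PPP1R15A (GADD34), which brings the phosphatase to eIF2 and is itself switched on by this pathway, fell from 111 and 97.6 CPM to 87.4 and 81.1 CPM (log2 fold change -0.31, adjusted p = 0.00666 in edgeR). Of the 12 other response genes tested, 2 fell. GDF15, a secreted stress cytokine gene, fell from 46.3 and 51.6 to 34.8 and 36.3 CPM (log2 fold change -0.46, adjusted p = 0.00072 in edgeR), and TNFRSF10B, the death receptor DR5 gene, by 0.18 on the log2 scale (adjusted p = 0.0495).

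Of the 12 other amino acid enzymes tested, 3 rose and 1 fell, against 5.43% and 5.42% of all genes tested, which is also the background for the other counts given here. GOT2, mitochondrial aspartate aminotransferase, rose by 0.22 on the log2 scale (adjusted p = 0.0224 in edgeR), GLUL, glutamine synthetase, by 0.25 (0.0187) and PYCR3, another enzyme that closes the proline ring, by 0.33 (0.0157). OAT, which links ornithine to the same proline precursor, fell by 0.26 (adjusted p = 0.0115 in edgeR). Among 11 other one-carbon and methionine cycle enzymes, 2 rose: GLDC of the glycine cleavage system by 0.47 (adjusted p = 0.0211) and AHCY, which clears the by-product of methylation reactions, by 0.20 (adjusted p = 0.0299). Of 9 other carriers, only SLC1A4, a serine and alanine carrier, was called, at -0.33 (adjusted p = 0.0334 in edgeR). The number of calls over the 58 genes changed with the library left out, as did that over all genes. Their median log2 fold change then ran from 0.014 (without shNC replicate 2) to 0.053 (without sh812 replicate 2). That of all genes ran from -0.012 (without sh812 replicate 2) to 0.005 (without shNC replicate 1).

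The endoplasmic reticulum branch of the stress response, read by 18 sensors and targets of ATF6 and XBP1, had 3 genes called lower in edgeR (16.7% of the list, against 5.42% of all genes called lower), 2 in DESeq2 and 3 in limma-voom. In each of these tools 0 were called higher. At an unadjusted p under 0.05, 1 was higher in each tool, and 5 were lower in edgeR, 6 in DESeq2 and 8 in limma-voom. Over all 16802 genes tested in edgeR, 1995 were higher and 2166 lower at that threshold. The list had a median log2 fold change of -0.10. It too was chosen with earlier results of these data known, so its share is a description only. HSP90B1, the chaperone GRP94, fell from 1419 and 1347 CPM to 1122 and 1151 CPM (log2 fold change -0.28, adjusted p = 0.00145 in edgeR). SEL1L, a subunit of the degradation machinery, fell by 0.25 (adjusted p = 0.00819 in edgeR), and ERN1, the sensor IRE1, by 0.26 (adjusted p = 0.0338 in edgeR). The master chaperone gene HSPA5 was at -0.10 (adjusted p = 0.246) and XBP1 at -0.10 (adjusted p = 0.382). The number of calls in this list also changed with the library left out, as did that over all genes. The median log2 fold change of the list then ran from -0.11 (without sh812 replicate 2) to -0.07 (without shNC replicate 2).

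**Figure D4:**
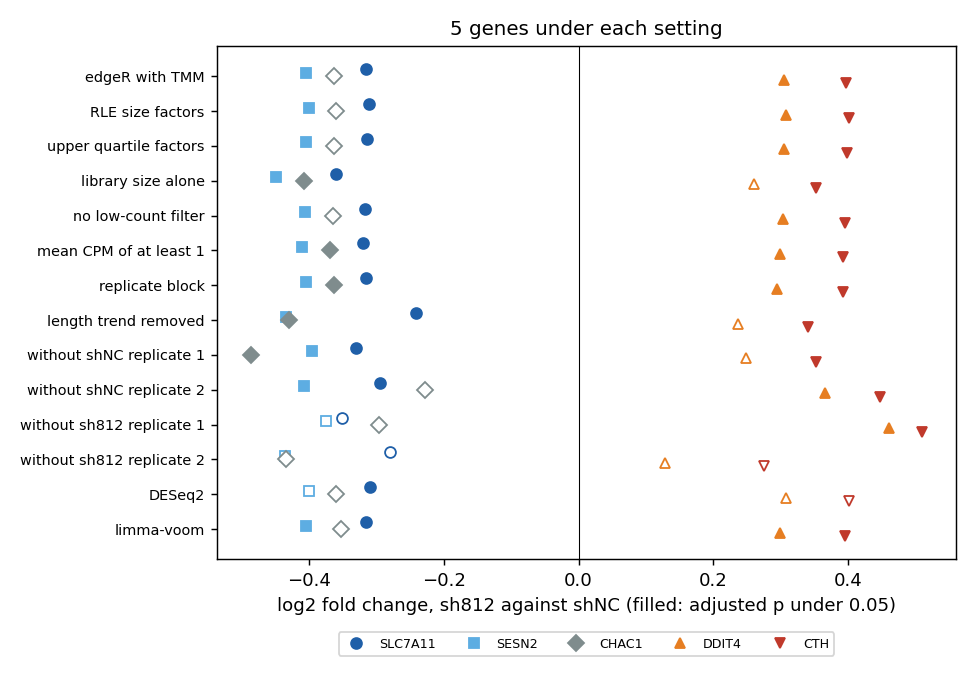
Log2 fold change of the 4 called genes and CHAC1 under each normalization, filter, test and left-out library, with filled symbols where the adjusted p was under 0.05. All symbols stay on their side of 0, SLC7A11 is open only without an sh812 library, and all 5 are open without sh812 replicate 2.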

How the data were processed

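Gene counts of 4 PC3 libraries were analysed. The authors deposited raw counts per gene, unnormalized; per the submitters' processing notes, the tools named are fastp, STAR 2.7.1a, featureCounts and DESeq2 and the build is hg38, with no role or settings. Annotation release and strand setting are not given in the sources used here. Totals and the precision they give are in the report.

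All genes were fitted with edgeR 4.0.16 in R 4.3.3 (filterByExpr, TMM, glmQLFit, glmQLFTest, sh812 against shNC, prior count 0.125), with Benjamini-Hochberg adjustment over 16802 genes and calls at 0.05. SE came from the F statistic and 95% intervals from its degrees of freedom, unadjusted for the number of genes. Alternatives were RLE, upper quartile or library size scaling, no filter, mean CPM of at least 1, DESeq2 1.42.0, limma-voom (limma 3.58.1), the replicate number as a block, a prior count of 2, removal of each library's length trend (lowess, span 0.3) and each library left out. Replicates differed beyond sampling noise (chi-square per gene 8.43 in shNC and 4.51 in sh812). The fit was tested on simulated data. Exon lengths (the union of all annotated exons of a gene) and positions are from GENCODE 29. The members and lists were chosen with earlier results of these data known. Every member is reported; of the other lists, every called gene is named.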

Additional observations from a re-analysis of the deposited data

How the results depend on the processing

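With DESeq2, 1 member was called against 4, namely SLC7A11. With library size alone, 5 endoplasmic reticulum genes were called against 3. The cause was not tested. Library size alone also moved the median of all genes to -0.050 and the calls to 561 higher and 1328 lower, against 912 and 910, and those of the members to 1 higher and 3 lower. Fitted values near 0 changed sign, with no adjusted p under 0.05: STC2 with library size alone (-0.026), ATF4 with DESeq2 (0.00022) and JDP2 with limma-voom (0.025).

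With 1 library left out, the lone sample is assumed to vary like the other arm. Calls then ran from 587 to 3252 over all genes, 0 to 12 over the members, 2 to 16 over the other pathway genes and 0 to 6 over the endoplasmic reticulum genes, and METTL3 from -2.52 to -2.33. Values that changed sign, each with an adjusted p over the threshold on the changed side, ran from -0.024 to 0.021 (ATF4), -0.061 to 0.035 (CEBPG), -0.86 to 0.90 (JDP2), -0.18 to 0.062 (TRIB3), -0.030 to 0.076 (STC2), -0.14 to 0.0062 (SLC3A2), -0.0064 to 0.16 (PHGDH) and -0.037 to 0.021 (PSPH).

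The labels do not say whether a replicate number marks a shared batch, and same-numbered libraries' deviations correlated at 0.0164. With the replicate block, 5 members were called against 4, CHAC1 being added, and 2001 genes in all; METTL3 was at -2.42. At this depth, the 95% intervals of the 5 members with a mean under 5 CPM reached beyond a 1.5-fold change.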
